A study of Mus musculus with 2 samples.

Results

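The genes described here are 6 chemokines that draw monocytes and other leukocytes into tissue, Ccl2, Ccl7, Ccl8, Ccl12, Ccl6 and Ccl9, and 2 chemokine receptors of monocytes and macrophages, Ccr2 and Cx3cr1. They were chosen by name, and all 8 were among the 32285 features of the deposited matrices. Single-cell RNA was measured in liver tumours of Crtc2+/+ and Crtc2-/- mice, with 1 library per genotype. CRTC2, the product of Crtc2, is a cofactor that CREB uses to activate genes in response to cAMP. Mice of both genotypes received 25 mg/kg of diethylnitrosamine (DEN), a liver carcinogen, by intraperitoneal injection at 2 weeks of age, and from week 8 to week 26 they ate a NASH diet, that is, one that brings on fatty liver with inflammation. The labels used here do not name the strain, the cells in which Crtc2 was deleted, or how many animals and tumours went into a library. The comparison asks how these genes differed between tumours of the 2 genotypes, cell type by cell type. With 1 library per genotype there is no replicate check and no test, and genotype cannot be told apart from the animal, tumour or library. All intervals are 95% intervals, and they cover counting error only.

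Ccl2, Ccl7, Ccl8 and Ccl12 are the monocyte chemoattractant proteins of the mouse. Ccl2, Ccl7 and Ccl12 act through Ccr2, the receptor that classical Ly6C-high monocytes need to leave the bone marrow and enter inflamed liver. Ccl6 and Ccl9 belong to a rodent group of CC chemokines made constitutively by myeloid cells, with Ccr1 as their best-known receptor. Cx3cr1 binds fractalkine, the product of Cx3cl1, and is high on nonclassical monocytes and on many monocyte-derived macrophages. Resident Kupffer cells of the healthy liver have little Ccr2 or Cx3cr1.

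The chemokine genes lie in 2 groups on chromosome 11 of the GRCm38 build. Ccl2 (82035571 to 82037453), Ccl7 (82045712 to 82047525), Ccl12 (82101845 to 82103400) and Ccl8 (82115185 to 82116799) are all on the plus strand. Ccl9 (83572919 to 83578636) and Ccl6 (83587882 to 83593087) are on the minus strand. Both receptor genes are on chromosome 9, Cx3cr1 on the minus strand from 119901616 to 120069879 and Ccr2 on the plus strand from 124101950 to 124113557. Promoters of 6 of the 8 genes were read from RefSeq (GRCm38.p6), and 3 are shown because the results turn on them: Ccl12, the gene with the largest differences, Ccl8, its neighbour, which differed from it in direction in macrophages, and Cx3cr1. Each is the 250 bases before the gene's start in RefSeq, on the gene's strand. For Cx3cr1 and Ccr2 that start lies inside the gene coordinates given above, which come from GENCODE. Capitals mark a match to 1 of the motifs searched.
Ccl12 promoter, chr11:82101595-82101844, plus strand: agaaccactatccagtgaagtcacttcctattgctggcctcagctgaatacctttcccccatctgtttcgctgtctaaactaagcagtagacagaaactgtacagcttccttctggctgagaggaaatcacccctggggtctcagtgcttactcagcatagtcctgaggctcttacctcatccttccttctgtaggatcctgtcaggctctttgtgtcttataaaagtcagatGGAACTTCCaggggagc
Ccl8 promoter, chr11:82114935-82115184, plus strand: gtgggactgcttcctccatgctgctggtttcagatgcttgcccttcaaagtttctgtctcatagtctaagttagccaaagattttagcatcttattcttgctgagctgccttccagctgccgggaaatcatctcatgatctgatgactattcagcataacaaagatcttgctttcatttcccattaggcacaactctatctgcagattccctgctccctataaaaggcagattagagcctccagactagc
Cx3cr1 promoter, chr9:120068297-120068546, minus strand: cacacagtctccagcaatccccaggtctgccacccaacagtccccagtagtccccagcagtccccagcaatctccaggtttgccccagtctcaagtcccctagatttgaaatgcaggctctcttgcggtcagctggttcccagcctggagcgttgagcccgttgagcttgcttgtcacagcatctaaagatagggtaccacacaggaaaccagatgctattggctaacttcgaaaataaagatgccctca

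The motifs were searched on both strands and may overlap. They were TGACG, the short form of the cAMP response element that CREB binds, and its full form TGACGTCA, TGANTCA for AP-1, GGNNNTTCC for NF-kB, and GAAANNGAA for interferon response elements. Among 32851 promoter windows of the same length, 17.8% held TGACG, 1.55% TGACGTCA, 6.75% TGANTCA, 15.7% GGNNNTTCC and 7.13% GAAANNGAA. None of the 6 windows held TGACG or TGACGTCA, which says only that these letters are not in these windows. The Ccl12 window held 1 match, GGNNNTTCC at position -17 from the start. The Ccl9 window held 1 TGANTCA and 1 GGNNNTTCC, the Ccr2 window held 1 GAAANNGAA, and the Ccl8, Ccl6 and Cx3cr1 windows held none of the 5. A match describes the letters and is not evidence of binding.

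The cells kept numbered 9349 in the Crtc2+/+ library and 8901 in the Crtc2-/- library, with medians of 7115 and 6560 unique molecular identifiers (UMIs) per cell. Cells were assigned by gates on raw UMIs of a few genes, and a cell could pass more than 1 gate. The macrophage gate (at least 20 UMIs of C1qa, C1qb and C1qc together) held 4940 Crtc2+/+ and 1662 Crtc2-/- cells. It was divided by the Kupffer cell genes Cd5l, Vsig4 and Clec4f at 3 UMIs into Kupffer-type macrophages, 41 and 537 cells, and other macrophages, 4899 and 1125 cells. A Sox5 myeloid gate (at least 2 UMIs of Sox5 with myeloid genes) held 104 and 918 cells, the monocyte gate (Ly6c2 with at least 5 UMIs of Lyz2) 614 and 726, and the neutrophil gate (at least 20 UMIs of S100a8 and S100a9) 75 and 310. T cells numbered 1926 and 2608, endothelial cells 233 and 677, and hepatocytes 270 and 239. The 29 barcode sequences present in both libraries stayed in as separate cells.

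Gate names were checked against other markers. Of 14 marker lists, that of the gated type had the highest summed level in the other macrophage, monocyte, neutrophil, T, endothelial and hepatocyte gates of both libraries. In the Kupffer-type gate the macrophage list was highest and the Kupffer cell list next, at 1805 and 2217 CPM. The hepatocyte marker Cyp2e1 had no UMI in the Crtc2+/+ hepatocyte gate. The Sox5 gate did not hold the same cells in both libraries. Its nonclassical monocyte markers stood at 118 CPM (UMIs per 1000000 UMIs of the gate) in the Crtc2+/+ library and 678 CPM in the Crtc2-/- library, its cholangiocyte markers at 330 and 18.8 CPM, and Lyz2 at 2033 and 363 CPM. Of its Crtc2+/+ cells 18.3% also passed the hepatocyte gate. The Crtc2-/- library also held more S100a8 and S100a9 in the monocyte gate, 8059 against 81.0 CPM, where 62 of 726 cells passed the neutrophil gate too. The part of these differences in the results was not tested, except where values without such cells are given.

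Levels are given as CPM with exact Poisson intervals. A log2 ratio sets the Crtc2-/- level over the Crtc2+/+ level, each with 10 CPM added, which draws ratios of low levels towards 0. A gene counts as measured in a gate where the libraries together held 20 UMIs or more, and a log2 ratio of at least 1 in size is called lower or higher. Of the 72 pairs of gene and gate 65 were measured, 25 were lower in the Crtc2-/- library and 3 were higher. Over all measured genes, by gate, 0.44% (T cells) to 8.07% (Sox5 cells) were lower and 0.909% (T cells) to 10.3% (neutrophils) higher. The pairs are not independent, since the 9 gates include the macrophage gate and both of its parts, and other gates share cells too. Crtc2 itself was at 6.56 and 5.78 CPM in the macrophage gate, a ratio of 0.881 (interval 0.711 to 1.09), and at 7.96 and 5.43 CPM over all kept cells, a ratio of 0.683 (0.600 to 0.775). A 3' count does not show whether these transcripts are intact, so it does not check the genotype labels.

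**Figure D1:**
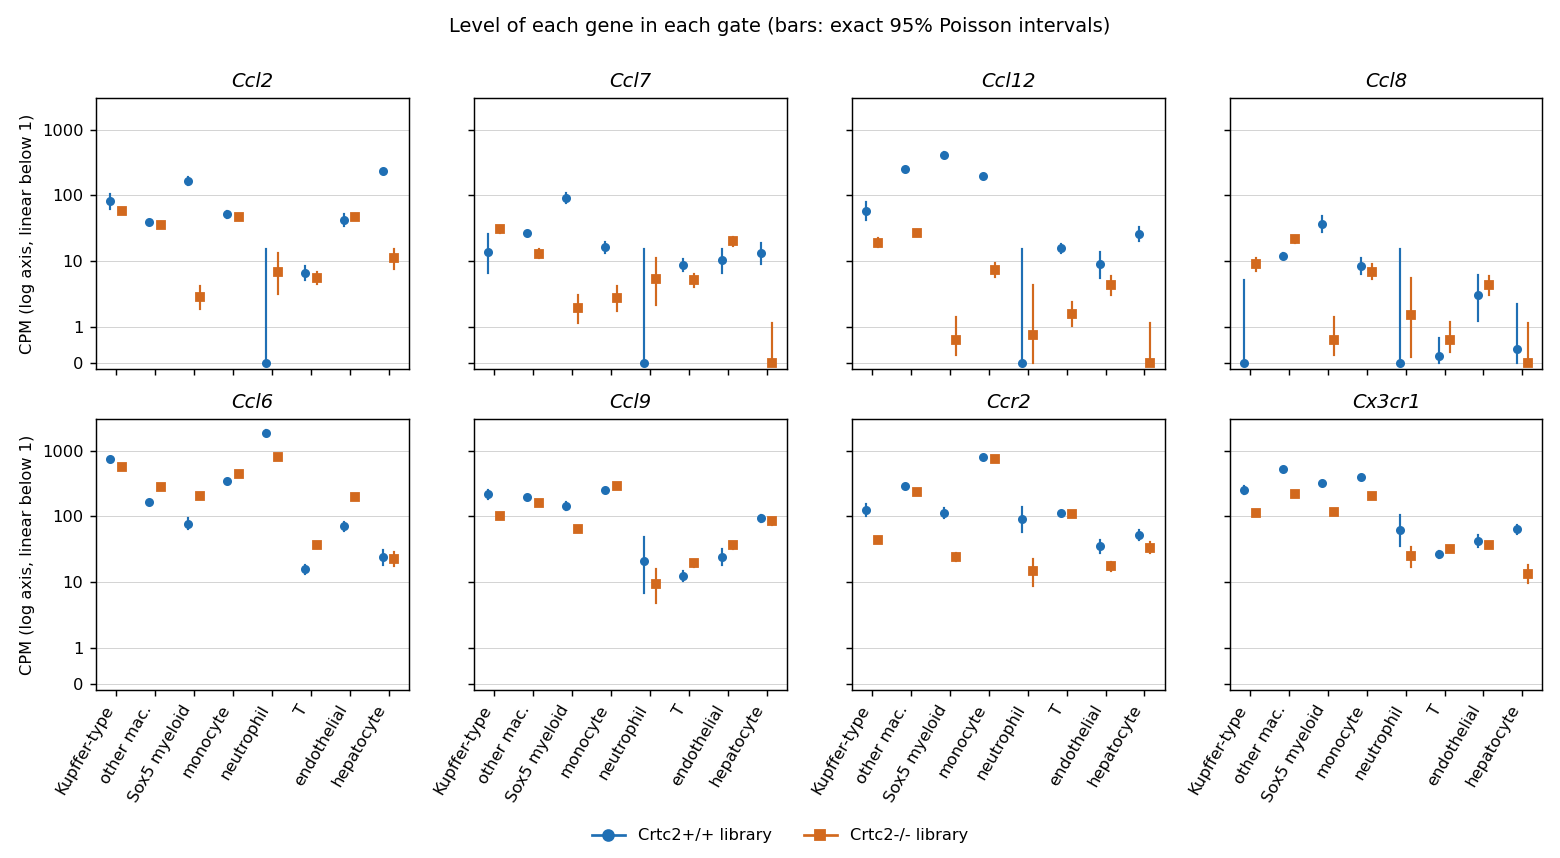
Level of each gene (CPM, log axis that is linear below 1) in 8 gates, with the Crtc2+/+ library as blue circles, the Crtc2-/- library as orange squares and exact 95% Poisson intervals as bars. Ccl12 stands apart between the libraries in the other macrophage, Sox5 and monocyte gates, while Ccr2 in monocytes (791 and 756 CPM) and Ccl2 in other macrophages (39.8 and 35.8 CPM) lie close together.

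Ccl12, a Ccr2 ligand with no direct human counterpart, had the largest difference in the other macrophage and monocyte gates. In other macrophages it stood at 247 CPM (243 to 252) in the Crtc2+/+ library and 26.7 CPM (23.9 to 29.7) in the Crtc2-/- library, a log2 ratio of -2.81. In monocytes it stood at 194 CPM (183 to 205) and 7.42 CPM (5.69 to 9.51), a log2 ratio of -3.55. The Crtc2+/+ library was thus 9.26-fold higher in other macrophages and 26.1-fold higher in monocytes. Kupffer-type macrophages had 58.5 and 18.9 CPM, and 1 of the 41 Crtc2+/+ cells held 54.8% of that level's 42 UMIs. T cells had 15.8 and 1.59 CPM, and B cells outside all gates 3.97 and 0.348 CPM. Of the T cells, 34 and 46 also passed the macrophage gate. The T cell log2 ratio was -1.16, and -0.44 in T cells of no other lineage. In hepatocytes Ccl12 stood at 26.3 CPM in the Crtc2+/+ library, with 89.2% of its UMIs in 3 cells, and had 0 UMIs in the Crtc2-/- library, which allows up to 0.946 CPM. In Crtc2+/+ hepatocytes of no other lineage Ccl12 stood at 1.74 CPM, from 3 UMIs.

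Both the share of cells with Ccl12 and the amount per cell were lower. With every cell thinned to 1000 UMIs, 8.90% of Crtc2+/+ other macrophages (exact Clopper-Pearson interval 8.12% to 9.73%) and 1.69% of Crtc2-/- ones (1.02% to 2.62%) had a Ccl12 UMI. Without thinning the shares were 23.6% and 6.93%. Cells that had the transcript held on average 10.5 and 4.4 UMIs of it. In thinned monocytes 5.54% and 0.689% had a Ccl12 UMI. Thinned B cells, which should lack Ccl12 and had unthinned median depths of 3434 and 3938 UMIs against 8890 and 10314 in other macrophages, gave 0.383% and 0.0880%. Within the monocyte gate the level followed C1q. Monocytes with fewer than 20 C1q UMIs had 38.6 and 2.61 CPM of Ccl12, and those with 20 or more had 322 and 20.7 CPM. C1q-rich cells made up 47.1% of Crtc2+/+ and 19.6% of Crtc2-/- monocytes, and the log2 ratio was -1.95 in the C1q-low cells and -3.43 in the C1q-rich cells.

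Ccl2, the main Ccr2 ligand, did not follow Ccl12. In other macrophages it stood at 39.8 CPM (38.1 to 41.6) in the Crtc2+/+ library and 35.8 CPM (32.6 to 39.2) in the Crtc2-/- library, a log2 ratio of -0.12. Monocytes had 51.2 and 46.3 CPM, a ratio of 0.904 with an interval of 0.779 to 1.05. The direction differed by C1q content, with 44.8 and 33.4 CPM in C1q-low and 56.6 and 81.9 CPM in C1q-rich monocytes. Endothelial cells had 42.8 and 47.4 CPM, Kupffer-type macrophages 80.7 and 58.8 CPM, and T cells 6.66 and 5.55 CPM. In endothelial cells of no other lineage the direction turned, at 38.5 and 30.9 CPM. None of these 5 gates had a Ccl2 ratio past the threshold. Cells outside all gates, a mixed set, had 34.9 and 4.07 CPM of Ccl2, a log2 ratio of -1.67. All kept cells together had 40.9 and 20.1 CPM.

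Hepatocytes were the gate outside the Sox5 cells in which Ccl2 differed most. The Crtc2+/+ hepatocytes had 233 CPM (214 to 253) and the Crtc2-/- hepatocytes 11.0 CPM (7.69 to 15.3), a log2 ratio of -3.53. Leaving only cells that passed no gate of another lineage gave 287 and 12.6 CPM, with Ccl2 in 40 of 224 and 8 of 189 cells. Per 1000 C1q UMIs, hepatocytes held 138 and 19.9 Ccl2 UMIs, monocytes 8.16 and 18.3 and other macrophages 2.56 and 3.41. Macrophages were gated on C1q, which lowers their ratio, so these ratios do not show which cells made the Ccl2. The level rested on few cells, since 3 of the 270 Crtc2+/+ cells held 36.5% of the 576 UMIs. The cells of the gate also differed, as hepatocyte markers summed to 3236 and 9370 CPM and cholangiocyte markers to 694 and 230 CPM. The median mitochondrial share was 4.88% and 1.78%, and the median depth 7620 and 11401 UMIs. The part of these in the difference was not tested.

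Ccl7, a Ccr2 ligand that also binds other receptors, was lower in monocytes, at 16.2 and 2.75 CPM with a log2 ratio of -1.04. In the C1q-low and C1q-rich monocytes taken alone the log2 ratios were -0.94 and -0.79, neither past the threshold, and with the gate limits doubled it was -0.19. Other macrophages had 26.6 and 13 CPM, a log2 ratio of -0.67, and Kupffer-type macrophages had 13.9 and 30.4 CPM, where the Crtc2+/+ value rests on 10 UMIs. In Kupffer-type cells of no other lineage the direction turned, at 19.8 and 8.71 CPM. Hepatocytes had 13.3 CPM and 0 UMIs, which allows up to 0.946 CPM. Few cells carried the transcript. Unthinned, 3.58% (2.26% to 5.37%) and 1.24% (0.568% to 2.34%) of monocytes had a Ccl7 UMI, against 0.382% and 0.0879% of B cells. Thinned to 1000 UMIs the monocyte shares were 0.814% and 0%, from 5 and 0 cells. Thinned to 2000 UMIs they were 0.653% and 0.691%, from 4 and 5 cells. Thinning left too few cells with a Ccl7 UMI to compare the shares at matched depth.

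Ccl8, a chemoattractant of monocytes and lymphocytes, was the 1 monocyte chemoattractant protein with a higher level in Crtc2-/- other macrophages, 12 and 21.6 CPM, a ratio of 1.80 (1.55 to 2.07) and a log2 ratio of 0.52. The shares of these cells with a Ccl8 UMI were close, 3.53% and 3.82% unthinned and 0.816% and 1.42% thinned to 1000 UMIs. Few cells held most of it, since 12 of the 1125 Crtc2-/- cells had 82.0% of the 278 UMIs. The ratio's interval does not cover that unevenness. Kupffer-type macrophages had 0 UMIs in the Crtc2+/+ library, which allows up to 4.18 CPM, and 8.95 CPM in the Crtc2-/- library. Monocytes had 8.41 and 6.94 CPM, with all 54 Crtc2+/+ UMIs and 56 of 58 Crtc2-/- UMIs in the C1q-rich cells. Ccl8 lay almost wholly in C1q-rich cells, with 99.3% and 94.4% of its UMIs in the macrophage gate.

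**Figure D2:**
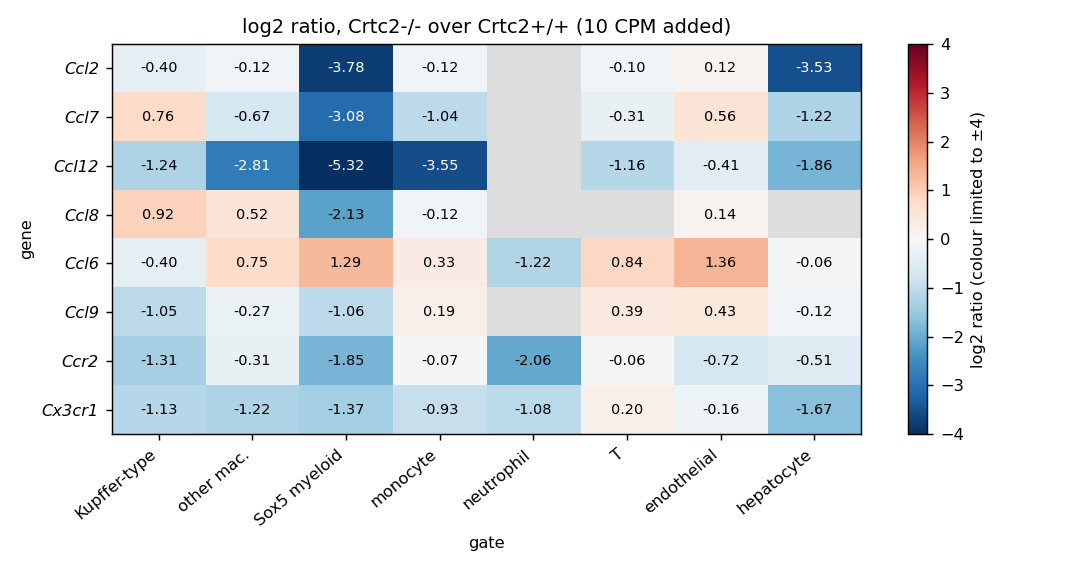
Log2 ratio of each gene (rows) in each gate (columns), Crtc2-/- over Crtc2+/+ with 10 CPM added, where blue is lower and red higher in the Crtc2-/- library and grey marks pairs with fewer than 20 UMIs. Ccl12 is lower in every gate where it was measured, past -1 in all of them but the endothelial gate, and Ccl6 is the gene with ratios past 1 in both directions.

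Ccl6, a constitutive myeloid chemokine, was higher in some gates and lower in neutrophils. The whole macrophage gate had 174 CPM (170 to 177) and 397 CPM (388 to 405), a log2 ratio of 1.15. Its parts differed less, at 165 and 284 CPM in other macrophages and 746 and 565 CPM in Kupffer-type macrophages. Kupffer-type cells were 41 of 4940 Crtc2+/+ and 537 of 1662 Crtc2-/- cells of the gate. Monocytes had 349 and 441 CPM, a log2 ratio of 0.33, and Sox5 myeloid cells 77.6 and 204 CPM, a log2 ratio of 1.29.

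Neutrophils had the highest Ccl6 level of the 8 gates in both libraries, 1858 CPM (1689 to 2040) and 793 CPM (746 to 843), a log2 ratio of -1.22. A Ccl6 UMI was found in 66.7% (54.8% to 77.1%) and 41.6% (36.1% to 47.3%) of thinned neutrophils, and in 88.0% and 65.2% without thinning. Thinned B cells gave 0% and 0.440%. The neutrophils of the libraries differed in other genes too. Chil3, a marker of immature neutrophils and monocytes, stood at 101 and 1813 CPM in the gate, Ly6c2 at 92.5 and 437 CPM, and 20% of the Crtc2-/- neutrophils also passed the monocyte gate. Without those cells the log2 ratio of Ccl6 was -0.86, no longer past the threshold. In endothelial cells Ccl6 had 71.3 and 198 CPM, a log2 ratio of 1.36, but 18.2% of the Crtc2-/- endothelial cells passed the Kupffer-type gate. In endothelial cells of no other lineage it had 7.46 and 13.4 CPM, a log2 ratio of 0.42.

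Ccl9, the neighbour of Ccl6, differed little in the larger myeloid gates. Other macrophages had 194 and 159 CPM, a log2 ratio of -0.27, and monocytes 255 and 293 CPM, a log2 ratio of 0.19. It was lower in Kupffer-type macrophages, 217 and 99.7 CPM with a log2 ratio of -1.05, and in Sox5 cells, 144 and 64.2 CPM with a log2 ratio of -1.06, which was -0.99 after median-ratio scaling. Hepatocytes had 92.9 CPM (81.3 to 106) and 84.5 CPM (74.7 to 95.2). Those levels were as large in hepatocytes of no other lineage, 91.6 and 98.9 CPM, with Ccl9 in 69 of 224 and 75 of 189 cells. Per 1000 C1q UMIs, hepatocytes held 55.1 and 153 Ccl9 UMIs, monocytes 40.6 and 116 and other macrophages 12.5 and 15.2. Macrophages were gated on C1q, which lowers their ratio, so these ratios do not show which cells made the Ccl9.

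Ccr2, the receptor through which Ccl2, Ccl7 and Ccl12 act, differed little in level between the whole monocyte gates of the libraries. Monocytes had 791 CPM (770 to 813) and 756 CPM (737 to 775), a ratio of 0.955 (0.920 to 0.991), and 47.2% and 49.2% of thinned monocytes had a UMI, against 0.958% and 0.528% of thinned B cells. Unthinned, the shares were 84.5% and 81.5%. Without the cells that also passed the neutrophil gate the levels were 792 and 801 CPM. Divided by C1q, C1q-low monocytes had 1065 and 841 CPM, a ratio of 0.789 (0.755 to 0.826), and C1q-rich monocytes 565 and 521 CPM, a ratio of 0.922 (0.856 to 0.991). The gate had the highest Ccr2 level of the 8 in both libraries. The next was other macrophages, with 292 and 234 CPM, a log2 ratio of -0.31. T cells had 113 and 107 CPM. Outside the gates, NK cells had 247 and 315 CPM, cells of the conventional dendritic set 268 and 273 CPM and plasmacytoid dendritic cells 193 and 240 CPM. The conventional dendritic set is mixed. It had more of the plasmacytoid dendritic markers (1744 and 2924 CPM) than of its own (915 and 1001 CPM), so its level is not that of 1 cell type.

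Ccr2 was lower in the Kupffer-type, Sox5 and neutrophil gates. Kupffer-type macrophages had 125 and 44.4 CPM, a log2 ratio of -1.31, and Sox5 cells 113 and 24.1 CPM, a log2 ratio of -1.85. With the gate limits doubled the Kupffer-type ratio was -0.93, no longer past the threshold. Neutrophils had 92.5 and 14.6 CPM from 22 and 19 UMIs, with the Crtc2+/+ UMIs in 3 of 75 cells and 59.1% of them in 1 cell. Without cells of the monocyte gate, Ccr2 in neutrophils had 94.5 and 4.88 CPM, and as a mean over cells the log2 ratio was -0.92, no longer past the threshold. Where Ccr2 transcripts lay also differed. Monocytes held 23.5% of all Ccr2 UMIs of the Crtc2+/+ library and 43.0% of those of the Crtc2-/- library, and the macrophage gate held 66.9% and 23.1%. These shares both count the C1q-rich monocytes. C1q-low monocytes, which lie outside the macrophage gate, held 14.3% and 35.1%, and cells in no gate 13.8% and 31.9%. Macrophages were 52.8% and 18.7% of kept cells.

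Cx3cr1, the fractalkine receptor, was lower in 6 of the 9 gates, which count the macrophage gate and both of its parts. In monocytes it missed the threshold by a small margin. Other macrophages had 525 CPM (519 to 532) and 219 CPM (211 to 227), a log2 ratio of -1.22. Kupffer-type macrophages had 255 and 111 CPM, Sox5 cells 320 and 118 CPM, and monocytes 399 and 204 CPM, with log2 ratios of -1.13, -1.37 and -0.93. As a mean over cells the Kupffer-type ratio just missed the threshold. Neutrophils had 63.1 and 24.6 CPM, a log2 ratio of -1.08, which was -0.75 without cells of the monocyte gate. In hepatocytes it had 63.8 and 13.2 CPM, but in hepatocytes of no other lineage 9.85 and 3.88 CPM, a log2 ratio of -0.52. T cells, with 26.7 and 32.2 CPM, did not share the difference. Of thinned other macrophages 38.7% and 16.8% had a Cx3cr1 UMI, against 1.34% and 0.352% of thinned B cells. Its ligand gene Cx3cl1 had at most 11 UMIs in any gate and library and was not measured well enough to compare.

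**Figure D3:**
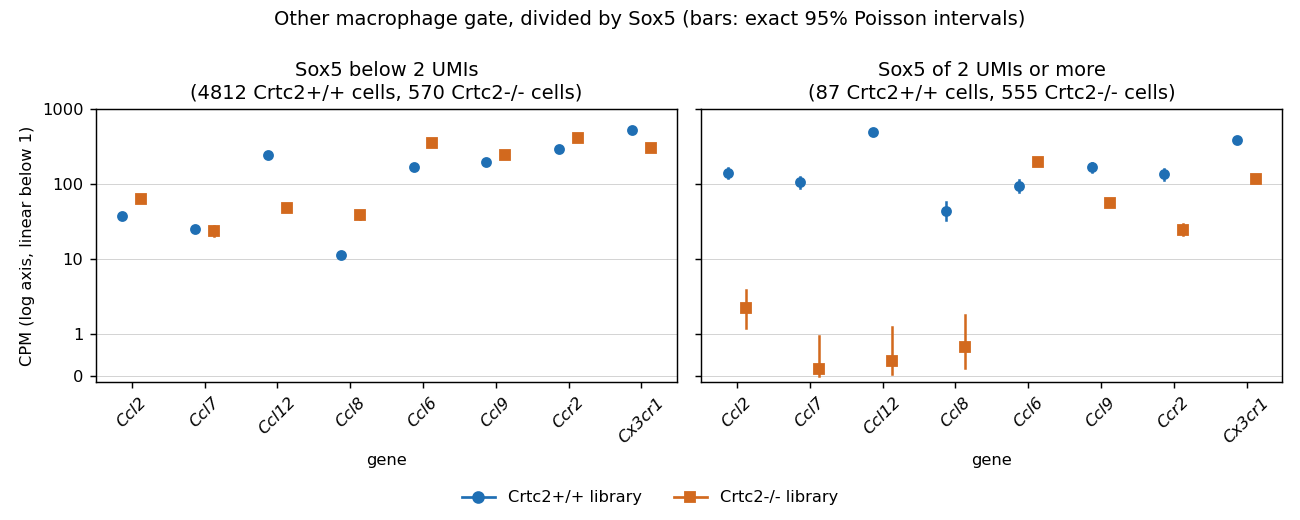
Levels in other macrophages with fewer than 2 Sox5 UMIs (left) and with 2 or more (right), in CPM on a log axis that is linear below 1, with exact 95% Poisson intervals. On the right all 4 monocyte chemoattractant proteins are below 3 CPM in the Crtc2-/- library; on the left Ccl12 and Cx3cr1 are lower and Ccl2, Ccl8, Ccl6, Ccl9 and Ccr2 higher in that library.

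The Crtc2-/- macrophages that carried Sox5 had nearly none of the monocyte chemoattractant proteins. Of the 1125 Crtc2-/- other macrophages 555 had at least 2 Sox5 UMIs, against 87 of 4899 in the Crtc2+/+ library. Those 555 cells had 2.25 CPM of Ccl2, 0.173 of Ccl7, 0.691 of Ccl8 and 0.346 of Ccl12. The 87 Crtc2+/+ cells had 140, 105, 44.2 and 499 CPM, with UMIs of these genes in 21, 8, 7 and 40 of the cells. The Crtc2-/- cells with Sox5 kept Ccl6, at 197 CPM, and had 24.5 CPM of Ccr2 and 117 CPM of Cx3cr1. Over the whole Sox5 gate Ccl12 stood at 414 and 0.649 CPM, Ccl2 at 166 and 2.81, Ccl7 at 91.2 and 1.95 and Ccl8 at 36.6 and 0.649 CPM. Of the 104 Crtc2+/+ cells, the 2 with the most UMIs of a gene held 72.4% of the 127 Ccl7 UMIs and 78.4% of the 51 Ccl8 UMIs. For Ccl12 and Ccl2 the 2 such cells held 28.6% and 29.0%. The 2 libraries' Sox5 cells differ in the markers given above, so ratios between the libraries may compare different cells.

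Without the Sox5-carrying cells the other macrophage gate read differently for most of the 8 genes. Ccl12 remained lower, at 241 and 48.3 CPM, a log2 ratio of -2.11. Cx3cr1 had 529 and 303 CPM, a log2 ratio of -0.78, no longer past the threshold. Ccr2 had 296 and 405 CPM and Ccl2 37.4 and 63.3 CPM, both with more in the Crtc2-/- library. Ccl8, at 11.3 and 38.8 CPM, and Ccl6, at 167 and 355 CPM, passed the threshold for higher, with log2 ratios of 1.2 and 1.05. This division was chosen after seeing the data.

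The ratios stood against different backgrounds in each gate. In the macrophage gate 2 of the 8 genes were lower and 1 higher, where 1.74% of all measured genes were lower and 2.88% higher. The median log2 ratio of the 8 genes there was -0.39 and that of all measured genes 0.02. In Kupffer-type macrophages 4 of 8 were lower against 1% of all genes and none higher against 1.3%. The medians there were -0.72 and 0.05. In other macrophages 2 of 8 were lower against 1.82% and none higher against 2.59%, with medians of -0.29 and 0.02. In Sox5 cells 7 of 8 were lower and 1 higher, where 8.07% of all genes were lower and 4.3% higher. The median over the 8 genes in Sox5 cells was -1.99 and over all genes -0.07.

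In monocytes 2 of 8 were lower and none higher, against 1.06% of all genes in either direction, and the medians were -0.12 for the 8 and 0.01 for all genes. In neutrophils 3 of 3 measured genes were lower against 2.54%, and none higher against 10.3%. In T cells 1 of 7 was lower against 0.44% and none higher against 0.909%. In endothelial cells none of 8 was lower against 2.58%, and 1 was higher against 2.3%. In hepatocytes 4 of 7 were lower against 4% and none higher against 4.21%. Several of these calls changed when shared cells were left out. Without cells of the monocyte gate, 1 of the 3 neutrophil calls stayed past the threshold. In cells of no other lineage, Ccl12 in T cells, Ccl6 in endothelial cells and Cx3cr1 in hepatocytes were no longer past it. Ccl12 in hepatocytes then had too few UMIs to be measured. The medians of the measured genes of the 8 were -1.22 in neutrophils, -0.06 in T cells, 0.13 in endothelial cells and -1.22 in hepatocytes, and those of all genes 0.09, 0.03, -0.03 and -0.05. These shares describe 8 genes that share cells and, for 6 of them, neighbouring positions, so they are not independent counts.

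Cell by cell, the genes fell into a group held by few cells and a group spread over many. In Crtc2+/+ other macrophages the 49 cells with the most UMIs of a gene, 1% of the gate, held 49.7% of Ccl2, 73.6% of Ccl7, 70.8% of Ccl8 and 40.3% of Ccl12. The same share of cells held 9.97% of Ccl6, 9.81% of Ccl9, 8.55% of Ccr2 and 5.16% of Cx3cr1. The largest Ccl12 count in 1 cell was 252 UMIs. The Crtc2-/- other macrophages had the same order of groups, with 65.6% to 88.0% for the 4 monocyte chemoattractant proteins and 8.27% to 21.7% for the other 4 genes. Cells with many UMIs of these chemokines were thus a small part of the gate in both libraries.

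**Figure D4:**
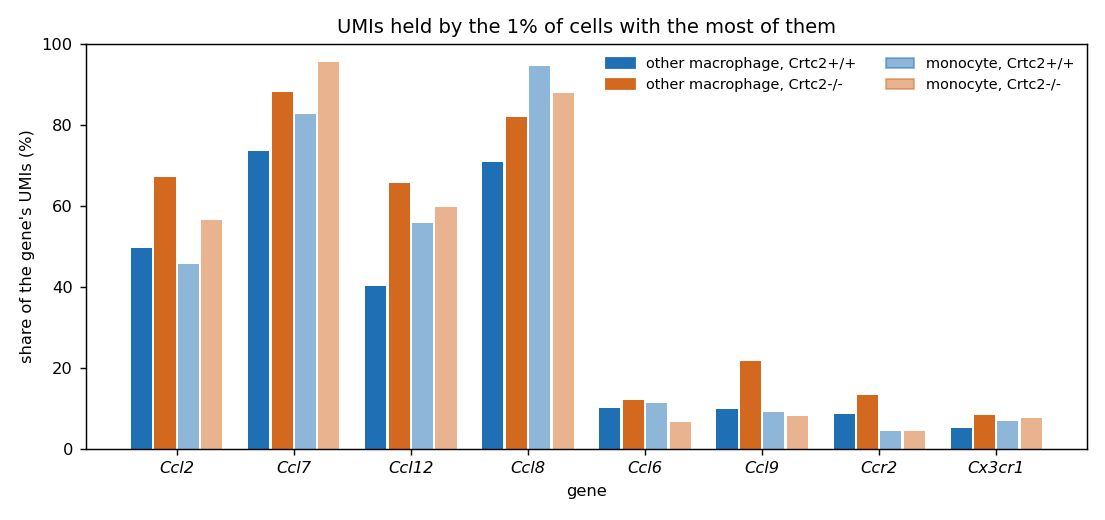
Share of a gene's UMIs (percent) held by the 1% of cells with the most of them, in the other macrophage gate (dark bars) and the monocyte gate (light bars) of the Crtc2+/+ (blue) and Crtc2-/- (orange) libraries. Ccl2, Ccl7, Ccl12 and Ccl8 are all above 40% and the other 4 genes below 22%.

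Ccl2 and Ccl7 were more frequent in cells with Ccl12 than in cells without it, though most cells with Ccl12 had no UMI of either. In thinned Crtc2+/+ other macrophages 14.9% (11.7% to 18.6%) of cells with a Ccl12 UMI also had Ccl2, against 1.39% (1.07% to 1.78%) of cells without. For Ccl7 the shares were 9.63% and 0.493%. Ccl7 was also found in 17.3% of Ccl2-positive and 0.880% of Ccl2-negative cells. Ccl8 did not show this within counting error, with 1.38% (0.507% to 2.97%) and 0.762% (0.528% to 1.06%). Ccl6 was less frequent with Ccl12, 10.6% (7.83% to 13.8%) against 15.1% (14.0% to 16.1%). In the Crtc2-/- other macrophages only 19 thinned cells had Ccl12, and 5 of them had Ccl2. Cells of 1 library are not replicates, so these shares describe the libraries.

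**Figure D5:**
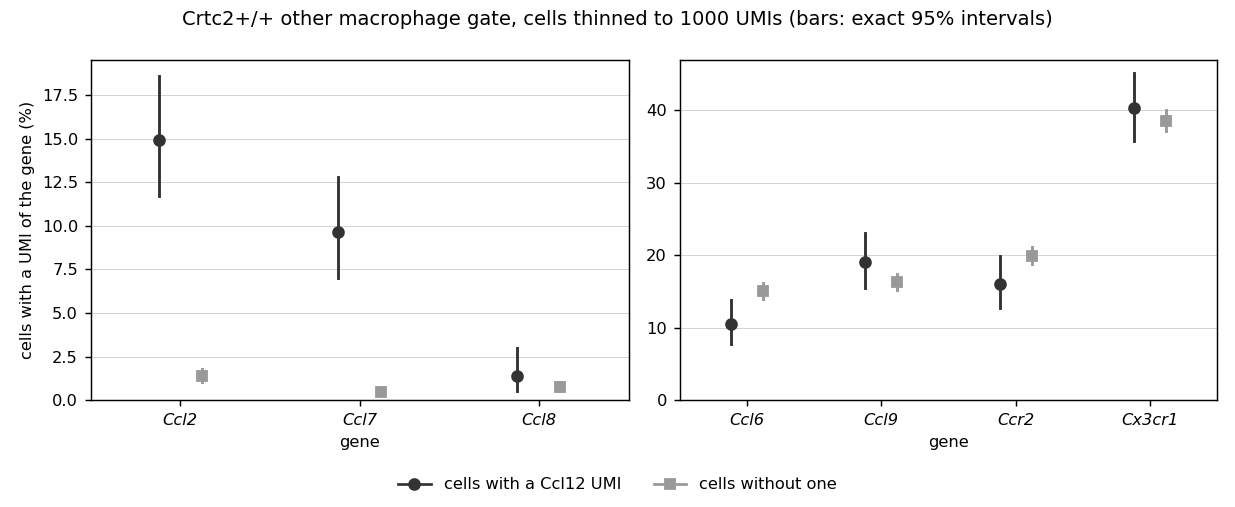
Percent of thinned Crtc2+/+ other macrophages with a UMI of each other gene, among cells with a Ccl12 UMI (dark circles, 436 cells) and without one (grey squares), with exact 95% intervals; the panels have different vertical ranges. Ccl2 and Ccl7 are more frequent in cells with Ccl12, and Cx3cr1 differs by less than its interval.

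Receptors and ligands were not exclusive. In thinned monocytes with a Ccr2 UMI, Ccl6 was found in 31.7% of Crtc2+/+ and 41.5% of Crtc2-/- cells, against 22.5% and 31.2% of cells without Ccr2. Ccl9 was found in 24.8% and 29.4% of cells with Ccr2, against 17.3% and 18.7%. Ccl12 went the other way in the Crtc2+/+ library, 3.10% (1.43% to 5.81%) with Ccr2 and 7.72% (5.06% to 11.2%) without, and these intervals overlap. The gate holds both C1q-low monocytes, which had more Ccr2, and C1q-rich monocytes, which had more Ccl12. The part of this mixture in the shares was not tested.

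Across 16 profiles, 8 gates in 2 libraries, the genes most like each of the 8 by Pearson's r of log2 levels were named by a fixed rule. Ccl12 was most like Ntpcr (r = 0.95), Zmynd15 and Extl3. Ccl6 was most like Csf2rb, a receptor chain for myeloid growth factors (r = 0.98), Slc15a3 and Clec4n. Ccl9 was most like Cyp27a1, a sterol hydroxylase (r = 0.96), Pid1 and Myof, and Ccr2 was most like Mcub (r = 0.90), Susd3 and Gng10. Cx3cr1 was most like Ppfia4 (r = 0.98), the nucleotide receptor P2ry6 and the lysosomal protease Ctss. Ccl2 was most like Sestd1 (r = 0.85), Ccl7 like Oas1g (r = 0.85), Zmynd15 and Sass6, and Ccl8 like Gm13710 (r = 0.79), Slc12a9 and Ccl7. Among the 8, r was 0.80 for Ccl12 with Ccl7, 0.72 for Ccl2 with Ccl7, 0.82 for Ccl9 with Cx3cr1 and -0.03 for Ccl12 with Ccl6. The profiles share cells between gates and share libraries, so r is a description of these 16 points.

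Other genes of the pathway were read from lists chosen with earlier results of these data known, with the counts of each list in the macrophage gate first. In that gate 1.74% of all measured genes were lower and 2.88% higher. Of 7 measured other CC chemokines 1 was lower and 1 higher. Ccl5, a chemoattractant of T cells and macrophages, stood at 593 and 189 CPM, a log2 ratio of -1.60. Ccl24, an eosinophil chemoattractant, stood at 3.47 and 41.8 CPM, a log2 ratio of 1.94. Taken apart, neither Kupffer-type nor other macrophages had a higher gene in this list, with 5 and 7 genes measured. Kupffer-type cells were 41 of 4940 Crtc2+/+ and 537 of 1662 Crtc2-/- cells of the gate. Their part in the Ccl24 ratio was not tested. Ccl3 had 315 and 194 CPM and Ccl4 985 and 715 CPM. Of 6 measured other receptors in the whole gate Ccr1, the receptor of Ccl6 and Ccl9, was lower at 48.8 and 19.3 CPM, and Ccr3 was higher at 0.642 and 12.4 CPM.

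Of 14 measured inducers and transcription factors of these chemokines none was lower and 2 were higher. Nfkbia, the NF-kB inhibitor that NF-kB itself induces, had 213 and 595 CPM, and Cebpb, a myeloid transcription factor, had 180 and 493 CPM. Il1b had 450 and 669 CPM and Fos 350 and 500 CPM. The list median was 0.26. Taken apart, Kupffer-type macrophages had 1 of 13 measured genes of this list lower and none higher, with a median of -0.16. Other macrophages had none of 14 lower and 2 higher, with a median of 0.20. The part of the gate's mixture in these values was not tested. None of 5 measured monocyte growth factors and receptors passed the threshold, and Csf1r, the receptor that macrophages depend on, had 473 and 499 CPM.

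Of 12 genes of receptor signalling and migration 2 were higher in the whole macrophage gate, Itgal, the alpha chain of LFA-1, at 52.0 and 177 CPM, and Rac2, a small GTPase of leukocytes, at 191 and 419 CPM. In Kupffer-type macrophages none of these 12 passed the threshold, and in other macrophages 3 were higher. Of 7 classical monocyte genes 1 was higher, Plac8, at 115 and 340 CPM. Of 5 nonclassical monocyte genes 3 were higher: Treml4 at 22.9 and 164 CPM, Nr4a1, the factor that nonclassical monocytes require, at 41.9 and 217 CPM, and Spn at 31.4 and 75.9 CPM. Taken apart, Kupffer-type macrophages had 1 of 5 classical and 2 of 5 nonclassical genes higher. Other macrophages had 3 of 7 and 3 of 5 higher. The fractalkine sheddases Adam10 and Adam17 had 228 and 197 CPM and 236 and 235 CPM in the whole macrophage gate. In the monocyte gate no gene of any of the 8 lists passed the threshold. F13a1 had 171 and 323 CPM there and Ccl5 462 and 247 CPM. In neutrophils, where 2.54% of all genes were lower and 10.3% higher, 2 of 3 measured CC chemokines (Ccl3 and Ccl4), 1 of 3 receptors (Ccrl2) and 2 of 12 inducers (Fos and Nfkb1) were lower. Higher there were 1 of 3 CC chemokines (Ccl5), 1 of 12 inducers (Tnf), 4 of 5 classical monocyte genes (Chil3, Ly6c2, Plac8 and F13a1, which had 0 UMIs in the Crtc2+/+ library) and 1 of 4 nonclassical genes (Pou2f2). None of the measured growth factor, migration and fractalkine genes, 4, 11 and 2 in number, passed the threshold there.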

How the data were processed

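UMI counts of 10x 3' libraries were deposited as raw counts, 1 matrix for each genotype. Per the file headers the matrices come from Cell Ranger 7.1.0, on mm10 per the submitters' processing notes, which also name Seurat without its role. Neither names the annotation or whether introns were counted. Coordinates come from GENCODE M21. Barcodes were kept with at least 500 UMIs, 250 genes and at most 20% mitochondrial UMIs, and Scrublet calls (scanpy 1.11.5, expected 0.8% per 1000 cells), 263 (2.74%) and 273 (2.98%), were removed; missed doublets remain. Total depths were 81487425 and 78040008 UMIs.

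The genes, gates and lists were chosen with earlier results of these data known. Counts were summed per gate and library. Myeloid in the Sox5 gate meant at least 3 UMIs of Csf1r, Fcgr4 and Lyz2, fewer than 2 of the Cd3 genes and fewer than 2 of Cd79a and Ms4a1. Outside the gates, at least 2 UMIs in sum named B cells by Cd79a and Ms4a1, NK cells by Ncr1 and Klrb1c and plasmacytoid dendritic cells by Siglech. Conventional dendritic cells were named likewise by Flt3, Xcr1, Clec9a, Cd209a and Ccr7. These sets were not made exclusive. Thinning drew 1000 UMIs per cell and left out shallower cells: 18 and 6 hepatocytes, 2 and 1 B cells, and 0 in the myeloid gates. Ratio intervals are exact conditional intervals. An upper limit stated in the text for 0 UMIs is 3 counts. It is lower than the upper end of the exact Poisson interval, which is 1.16 CPM for Ccl12 in Crtc2-/- hepatocytes. Listed genes named are the 4 with the largest log2 ratio in the macrophage, monocyte or neutrophil gate, and likeness was read among genes with at least 50 CPM in a profile. A few genes that these rules name are not reported here. The scripts were tested on simulated data. Python 3.11.15, numpy 2.4.6, scipy 1.17.1 and pandas 2.3.3 were used.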

Additional observations from a re-analysis of the deposited data

Results flagged for a closer look

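Ccl6 had ratios past the threshold in opposite directions, with a log2 ratio of -1.22 in neutrophils and 1.36 in endothelial cells. The difference between the gates was not tested. Neither ratio passed the threshold without the cells shared with another gate, at -0.86 in neutrophils outside the monocyte gate and 0.42 in endothelial cells of 1 lineage.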

How the results depend on the processing

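Of 28 pairs past the threshold, every pair that could be recomputed kept its sign under the 14 alternatives that recompute ratios, and the number lower in the Crtc2-/- library ranged from 18 (mean of per-cell CPM) to 26 (no pseudocount) against 25. The number higher, 3, was 6 with a pseudocount of 1 CPM, 5 with none and 5 without Sox5-carrying cells in the other macrophage gate. The 3 alternatives that leave out cells of another gate or with Sox5 were chosen after seeing the data. The 2 pseudocount values follow from the smaller constant added; for the Sox5 value the cause was not tested. Median-ratio scaling shifted log2 ratios by 0.08 at most. In hepatocytes, Ccl12 had too few UMIs among cells of 1 lineage. The called ratios of Ccl12, Ccl2 and Cx3cr1 in the Sox5 gate and of Ccl12 in the other macrophage, monocyte and Kupffer-type gates stayed past the threshold wherever recomputed; 12 of the 28 did not in at least 1 alternative. Values from the 41 Crtc2+/+ Kupffer-type cells and 75 neutrophils are the least precise. By Spearman's rho, 6 of 8 genes shared fewer than 2 of their 3 most similar genes. No paired analysis was possible because each genotype has 1 library.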
